A study of Mus musculus with 20 samples.

Results

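The genes described here are those of antigen presentation by major histocompatibility complex (MHC) class I and class II, in tumours formed by 4T1 cells in mice. A set of 35 genes was named by symbol: 23 of the class I branch and 12 of the class II branch. Of these, 34 had a row with values in the breast cancer (BC) columns of the deposited table, which held 15465 such rows, and Psmb9 was not analysed here. Ciita had 2 rows under different identifiers, giving 35 rows. The rule used symbols and no measured value, although the set was drawn up with earlier results of these data known.

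The study sequenced the RNA of whole pieces of tumour. In its BC model, 4 mice with orthotopic tumours each gave a BC primary tumor and a BC lung metastatic tumor at 28 days, and all 8 tumours had the genotype entry "4T1 derived". 4T1 is a single carcinoma line from the mammary gland of a BALB/c mouse, so all tumours share 1 origin; the strain of the host mice is not given in the sources used here. Libraries are numbered by mouse, so that lung metastasis 1 and primary tumour 1 come from the same animal. The question of this comparison is which genes differ between a primary tumour and the lung metastasis of the same mouse. The 12 libraries of a second, pancreatic, model were not used, because their values do not line up with the gene names.

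Class I molecules, made of a heavy chain and beta-2-microglobulin (B2m), display peptides from inside the cell to CD8 T cells and are present on most nucleated cells. Their peptides are cut by the proteasome, for which interferon gamma induces a variant set of subunits, carried into the endoplasmic reticulum by the Tap1-Tap2 transporter, trimmed by Erap1 and loaded with the help of tapasin and chaperones. Class II molecules display peptides from endosomes to CD4 T cells and are made mainly by dendritic cells, B cells and macrophages. Their alpha and beta chains travel with the invariant chain Cd74, whose remnant is exchanged for peptide by H2-DM under the control of H2-DO. Nlrc5 and Ciita are the related transactivators of class I and class II genes.

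The shared promoter elements of the 2 branches are shown because the 2 transactivators act through them. As described further on, H2-Aa, H2-Eb1 and H2-DMb1 had their 2 highest values in the same libraries, whereas H2-Ob was highest in lung metastasis 3. Whether the elements have a part in these levels was not tested. The sequences come from RefSeq on GRCm38.p6, another build than the mm9 of the deposited table, and 27 of the 34 members matched the promoter table. Each is printed 5′ to 3′ on the gene's strand and ends before the start of transcription. In the class II windows, the capitals mark GCAAC, the core of the X box, and ATTGG, the Y box read on the other strand. H2-Aa covers chr17:34287855-34287931 on the minus strand, H2-Eb1 chr17:34305748-34305824, H2-DMb1 chr17:34153070-34153146 and H2-Ob chr17:34238788-34238864, these 3 on the plus strand.
H2-Aa: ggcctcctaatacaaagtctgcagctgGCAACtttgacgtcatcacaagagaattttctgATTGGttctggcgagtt
H2-Eb1: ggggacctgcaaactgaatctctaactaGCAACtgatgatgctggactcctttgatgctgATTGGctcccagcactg
H2-DMb1: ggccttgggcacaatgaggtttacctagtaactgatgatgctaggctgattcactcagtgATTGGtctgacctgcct
H2-Ob: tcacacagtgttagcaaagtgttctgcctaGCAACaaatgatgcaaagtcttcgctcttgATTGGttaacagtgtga

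GCAAC followed by ATTGG, 25 to 40 bases from start to start on either strand, was found in 4 of the 27 members with a promoter, H2-Aa, H2-Eb1, H2-Oa and H2-Ob, and in 0.794% of all 32851 promoters of the same 300 bases (250 before and 50 after the start). Either element alone was common, with GCAAC in 35.2% and CCAAT in 37.4% of promoters, both strands searched. In the H2-DMb1 window GCAAC was not found, and only the Y box is in capitals. The letters searched were textbook forms chosen with these promoters in view, and a match is a description of sequence only.

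The class I windows are shown for the 2 classical heavy chains, for H2-Q4 and for B2m. The capitals mark GGGATTCCC, a kappa B element, an interferon-type element (GAANNGAAA, or, in B2m, GAAA, any 2 bases and GAAA, on either strand), the CRE-like TGACG, and ATTGG. H2-K1 covers chr17:34000349-34000473 on the minus strand, H2-D1 chr17:35262908-35263032, H2-Q4 chr17:35379428-35379552 and B2m chr2:122147524-122147648, these 3 on the plus strand.
H2-K1: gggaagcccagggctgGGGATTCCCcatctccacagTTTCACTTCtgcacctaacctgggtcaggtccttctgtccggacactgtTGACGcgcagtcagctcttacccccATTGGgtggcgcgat
H2-D1: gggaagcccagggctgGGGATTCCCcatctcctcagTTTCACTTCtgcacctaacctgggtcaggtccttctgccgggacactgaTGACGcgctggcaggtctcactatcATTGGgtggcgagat
H2-Q4: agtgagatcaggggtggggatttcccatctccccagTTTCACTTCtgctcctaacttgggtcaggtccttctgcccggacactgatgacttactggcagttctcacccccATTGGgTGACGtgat
B2m: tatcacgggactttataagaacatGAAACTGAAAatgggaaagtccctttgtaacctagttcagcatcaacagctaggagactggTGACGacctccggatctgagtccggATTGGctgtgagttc

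GGGATTCCC was in 4 of the 27 members (H2-K1, H2-D1, H2-Q6 and H2-Q7) and in 0.353% of all promoters. GAANNGAAA was in 7 members and 7.52% of promoters, and the form with GAAA, any 2 bases and GAAA in 4 members and 3.44% of promoters; a run of letters can hold both. TGACG, in 12 members, was in 20.8% of all promoters. The printed stretches of H2-K1, H2-D1 and H2-Q4 are alike, but the marked TGACG of H2-Q4 lies after ATTGG and not before it. Class I transcripts share sequence to unequal extents. Of the 50-base words in a reference transcript, 31.5% in H2-Q7, 27% in H2-Q6, 16.5% in H2-Q4, 12% in H2-D1, 11.2% in H2-T23, 8.79% in H2-K1 and 0.576% in H2-M3 also occurred in another gene. H2-DMb1 and H2-DMb2 shared 27.2% and 25.2% of their words with each other, and Cd1d1 shared 25.8% with Cd1d2, so values within these groups are uncertain. H2-Aa, H2-Ab1 and H2-Eb1 shared none. Only the members and a list of other class I and class II chain genes were searched, so words shared with further genes are not counted. The reference is of another mouse strain than 4T1, and what strain differences in these polymorphic genes do to the read counts was not tested.

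Depth was 15447918 to 28995834 reads per library, lowest in lung metastasis 3, and 1 read was worth 0.0337 to 0.0676 normalised counts. Lung metastasis 3 stood apart: its 10 most abundant genes took 13.35% of all signal, against 3.92% to 5.21% elsewhere, and it held the highest sums of alveolar type 2 and neutrophil markers. Over the metastases the alveolar type 2 sum was 4070 to 12800, against 95.5 to 113 in the primary tumours. In the primary tumours most of that sum was Abca3 (mean 94.9), and Sftpc had a mean of 1.41. The neutrophil sum was 7490 to 28600 in the metastases against 196 to 1170. The sum of carcinoma epithelium markers overlapped between groups (984 to 3340 against 1440 to 2810), and was lowest in lung metastasis 3. Its genes differed in direction: Krt19 had a mean of 123 in the metastases against 14.1 in the primary tumours, and Epcam 60.9 against 123. The metastasis samples therefore held lung transcripts, and in such bulk samples fewer cells of a type and less RNA per cell cannot be told apart. Values below are normalised read counts, given as mean ± SD over 4 mice where 1 value stands for a group.

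Few antigen presentation genes passed the test between lung metastases and primary tumours. Of the 34 member rows tested, 0 were higher and 1, Cd1d1, was lower at an adjusted p under 0.05 (limma on log2(value + 1), adjusted over 14003 genes). Over all genes 9.13% passed, 7.18% higher and 1.96% lower, beside 1 of 34 members. At an unadjusted p under 0.05 there were 3 members, or 8.82%, against 23% of all genes. H2-Oa, below the minimum of 1 in 4 libraries, was the member not tested. A lower value in all metastases than in any primary tumour was seen for 2 members, Cd1d1 and Lgmn, and for 7.56% of all genes.

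The members' median log2 change was -0.16, with 26 of 34 below 0, beside a median of -0.06 and 54.9% below 0 over all genes. Among the 2345 genes with a mean of at least 100, nearer to the level of most members, the median was also -0.16 and 67.9% were below 0. This lean rested on lung metastasis 3: without it 8 of 34 members were below 0 and the median was 0.11. Members differed more between libraries of a group than most genes did, with a median residual SD of 0.57 on the log2 scale against 0.4 over all genes and 0.33 over those with a mean of at least 100. The spread was 0.47 in the class I branch and 0.67 in the class II branch.

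**Figure D1:**
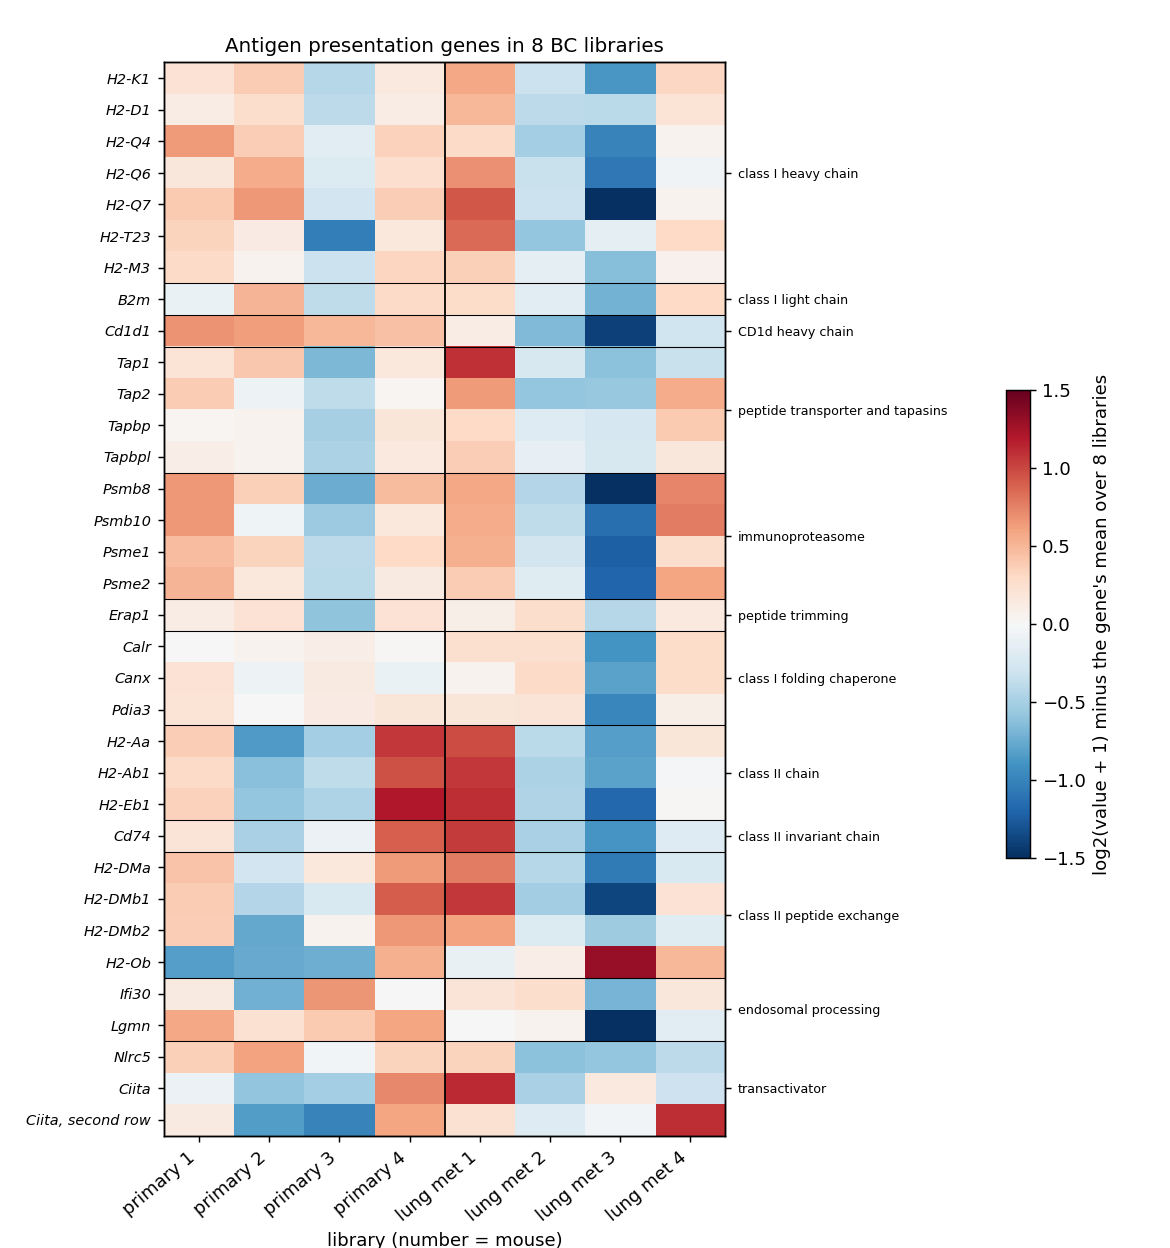
Heat map of log2(value + 1) minus each gene's mean over the 8 libraries, for the 34 tested member rows (rows, grouped by role) in 4 primary tumours and 4 lung metastases (columns, numbered by mouse). Colours are cut at 1.5 on either side. Lung metastasis 3 was the lowest library for 21 of the 34 members (61.8%, against 34.4% of all genes), and the class II chains were highest in lung metastasis 1 and primary tumour 4.

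**Figure D2:**
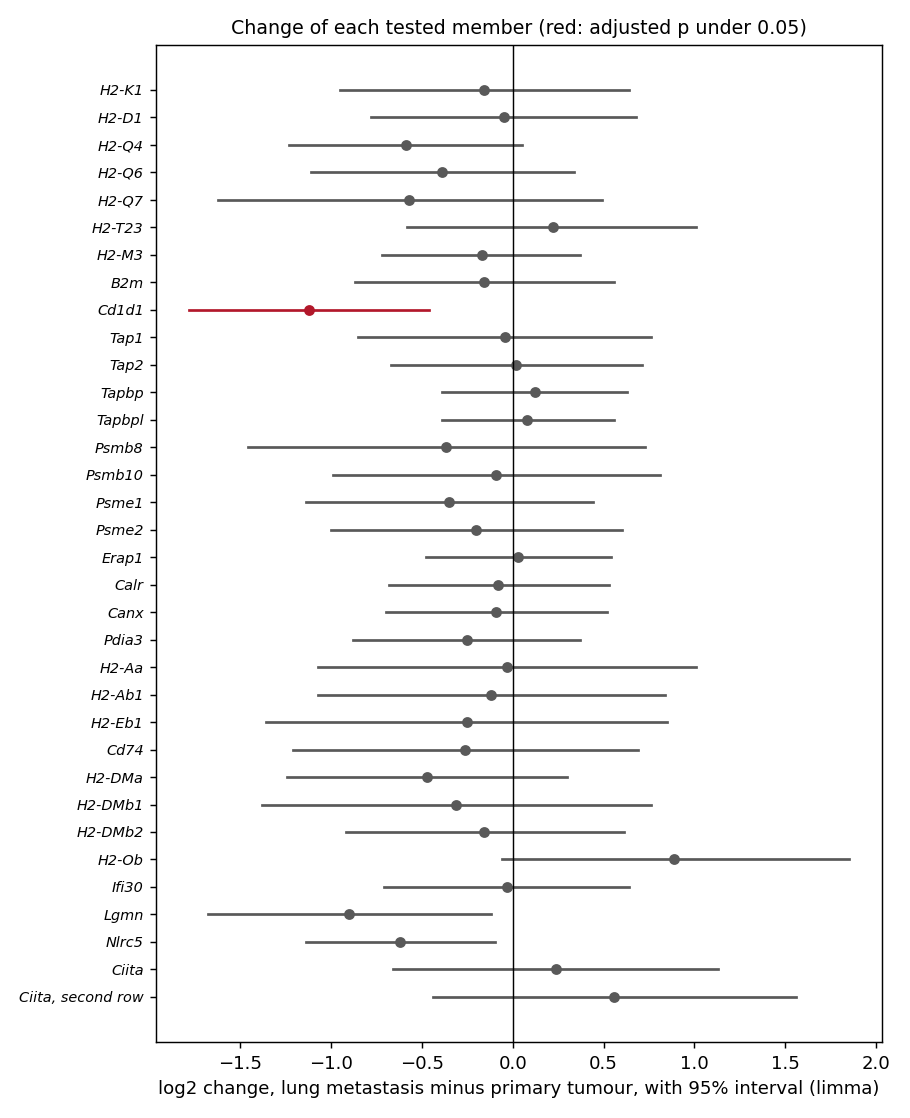
Log2 change (lung metastasis minus primary tumour) of each tested member row with its 95% interval from limma. Cd1d1, in red, is the 1 member with an adjusted p under 0.05; Lgmn and Nlrc5 also have intervals below 0, with adjusted p above 0.05.

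Cd1d1 encodes a class I-like heavy chain that pairs with B2m and presents lipids to natural killer T cells. It was at 26.5 in lung metastasis 1, 15.1 in 2, 8.65 in 3 and 19.6 in 4, against 39.6, 38.4, 34.9 and 33.4 in primary tumours 1 to 4. Every metastasis was below every primary tumour, with the lowest value in lung metastasis 3 and the highest of the metastases in mouse 1. The means were 17.5 ± 7.53 and 36.6 ± 2.89 (n = 4 each), and Cd1d1 fell by 1.12 on the log2 scale (SE 0.298, 95% interval -1.78 to -0.46, limma adjusted p = 0.0415; 0.0488 with the mouse as a block).

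The Cd1d1 call held without lung metastasis 3 (log2 change -0.84, adjusted p = 0.029) or 1 (0.0328). It ended without any 1 of the other 6 libraries (0.0506 to 0.117), with edgeR (0.0649; 0.0759 with the block) and when a value of at least 1 was asked in all 8 libraries (0.0617), within 0.014 to 0.117 over 19 alternatives. Markers of macrophages, which can express Cd1d1, summed to 791 to 1990 in the metastases and 1480 to 3260 in the primary tumours, with 2 of 11 called lower. In primary tumour 2, whose macrophage sum of 1480 lay within the range of the metastases, Cd1d1 was 38.4. The part of cell mixture, lung tissue included, in the Cd1d1 difference was not tested. Per unit of its partner B2m, Cd1d1 was 0.00995 to 0.0154 in the metastases and 0.019 to 0.0319 in the primary tumours, again without overlap.

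Of the 7 other class I heavy chains, 0 passed the test. H2-K1, a classical heavy chain, was at 2129, 1138, 779 and 1770 in lung metastases 1 to 4 and at 1663, 1860, 1059 and 1575 in primary tumours 1 to 4. Its groups overlapped fully, with the highest and the lowest value both in metastases (log2 change -0.16, interval -0.95 to 0.64, adjusted p = 0.827). H2-D1, the other classical chain in the table, was at 2992, 1623, 1605 and 2455 against 2302, 2558, 1613 and 2287. Its means of 2169 ± 677 and 2190 ± 404 were closer than their spread (adjusted p = 0.95), and the interval of -0.78 to 0.68 covers changes of either sign.

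H2-Q4, a nonclassical chain of the Q region, had the smallest p of the 7. It was at 360, 208, 148 and 306 in the metastases and 460, 383, 263 and 377 in the primary tumours. The metastasis was lower in all 4 mice, but the groups overlapped and the change of -0.59 (interval -1.23 to 0.05) did not pass (adjusted p = 0.255). H2-Q6 (166 ± 82.9 against 201 ± 43.0) and H2-Q7 (54.5 ± 37.3 against 67.8 ± 17.3) were each highest in lung metastasis 1 and lowest in lung metastasis 3.

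H2-T23 encodes Qa-1, which presents peptides from class I leader sequences to NK cell receptors. It was at 423, 157, 213 and 290 in the metastases against 296, 256, 114 and 262, and was the single heavy chain that was higher in the metastasis of 3 mice (log2 change 0.22, adjusted p = 0.755). H2-M3, which presents formylated peptides, was at 36.4 ± 10.4 against 40.5 ± 8.07. Summed, the 7 heavy chains came to 6335, 3339, 2866 and 5082 in lung metastases 1 to 4 and to 5033, 5435, 3272 and 4824 in the primary tumours. Mouse 1 had 6 of 7 higher in the metastasis, mouse 2 had 0, mouse 3 had 1 and mouse 4 had 3. The 7 chains thus shared no direction across mice.

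B2m, the light chain of all class I molecules, was at 1724, 1266, 870 and 1753 in the metastases and 1329, 2024, 1095 and 1738 in the primary tumours. It was higher in the metastasis of 2 mice and lower in that of the other 2 (log2 change -0.16, interval -0.87 to 0.56, adjusted p = 0.809). The ratio of H2-K1 to B2m kept between 0.896 and 1.25 over all 8 libraries. That of H2-K1 to H2-D1 was 0.656 to 0.727 in 7 libraries and 0.485 in lung metastasis 3.

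**Figure D3:**
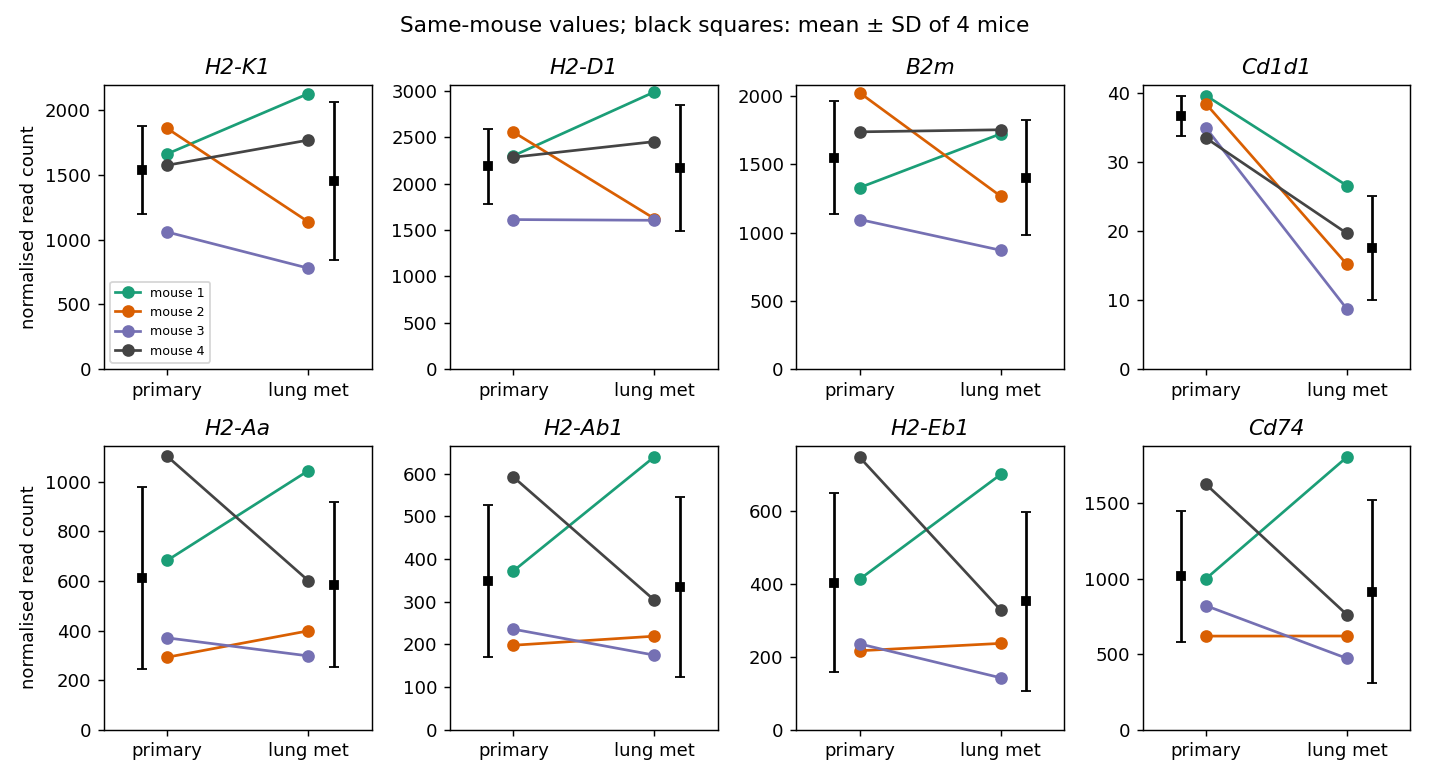
Normalised read counts of 4 class I members (top) and 4 class II members (bottom) in the primary tumour and lung metastasis of each mouse, joined by a line; black squares with bars are the mean ± SD of 4 mice. Cd1d1 was lower in the metastasis of every mouse, whereas the class II genes were higher in that of mouse 1 and lower in those of mice 3 and 4.

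Among the genes that load class I, Tap1, a subunit of the peptide transporter, was at 197, 77.3, 59.1 and 72.5 in the metastases and at 105, 121, 57.0 and 102 in the primary tumours. Lung metastasis 1 stood above the other 7 libraries, and primary tumour 3 and lung metastasis 3 were lowest (log2 change -0.04, interval -0.85 to 0.76, adjusted p = 0.955). Tap2, the other subunit, was at 159 ± 71.5 against 147 ± 32.2. Tapbp, which encodes tapasin and had the smallest p of this role, was at 575, 406, 390 and 610 against 475, 482, 330 and 529. Its relative Tapbpl was at 38.5 ± 7.57 against 36.3 ± 6.75, and 0 of these 4 genes passed.

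The immunoproteasome genes differed more between libraries than between groups. Psme1, a subunit of the PA28 activator with the smallest p of the 4, was at 435, 248, 128 and 361 in the metastases and 413, 378, 228 and 369 in the primary tumours (log2 change -0.35, interval -1.14 to 0.44, adjusted p = 0.595). Its partner Psme2 was at 292 ± 134 against 310 ± 76.7. Psmb8, a catalytic subunit, ranged from 89.0 in lung metastasis 3 to 455 in lung metastasis 4, with a mean of 288 ± 172 against 330 ± 117. Psmb10, a second catalytic subunit, was at 324.5 ± 172 against 319 ± 109.

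All 4 immunoproteasome genes were lower in the metastasis of mice 2 and 3, and 3 of 4 were higher in that of mouse 4. Their sum was 1646, 924, 474 and 1742 in the metastases and 1706, 1324, 805 and 1386 in the primary tumours, so mouse 3 was lowest in both tissues. The 4 members had log2 changes below 0, the median being -0.27, and without lung metastasis 3 the values were 0.10 for Psmb8, 0.27 for Psmb10, 0.00 for Psme1 and 0.17 for Psme2.

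Erap1, the aminopeptidase that trims peptides, was at 138, 157, 96.3 and 144 in the metastases and 141, 151, 85.1 and 151 in the primary tumours. Mouse 3 was lowest in both tissues and the means, 134 ± 26.2 and 132 ± 31.7, differed by less than the spread (adjusted p = 0.948). The chaperones, which fold many proteins besides class I, were nearly constant outside 1 library. Pdia3, a thiol oxidoreductase of the loading complex, was at 876, 882, 393 and 821 in the metastases and 893, 767, 842 and 873 in the primary tumours. Calreticulin (Calr) was at 335 in lung metastasis 3 and 620 to 753 elsewhere. Calnexin (Canx) was at 495 there and 809 to 1052 elsewhere. For this trio the changes of -0.25, -0.08 and -0.09 (adjusted p 0.629, 0.896 and 0.875) became 0.03, 0.21 and 0.16 without that library.

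Nlrc5, the transactivator of class I genes, was at 89.9, 46.3, 47.4 and 54.2 in the metastases and 91.7, 109, 69.0 and 89.8 in the primary tumours. It was lower in the metastasis of all 4 mice, by little in mouse 1, and lung metastasis 1 overlapped the primary tumours. The change was -0.62 (SE 0.236, interval -1.14 to -0.10) and did not pass over all genes (adjusted p = 0.141, 0.0501 to 0.289 over 19 alternatives). H2-K1, B2m and Tap1, class I genes that Nlrc5 is known to activate, were each higher in the metastasis of 2 mice. Of the other heavy chains, H2-Q4 was higher in 0 mice, H2-Q6, H2-Q7 and H2-M3 in 1, H2-D1 in 2 and H2-T23 in 3. The part of Nlrc5 in these levels was not tested.

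In the class II branch, 0 of 12 tested rows passed the test and its chain genes shared their highest libraries. H2-Aa, the alpha chain of I-A, was at 1045, 399, 298 and 602 in lung metastases 1 to 4 and 683, 292, 370 and 1103 in primary tumours 1 to 4. H2-Ab1, its beta chain, was at 640, 219, 175 and 303 against 372, 198, 236 and 592. H2-Eb1, the beta chain of I-E, was at 702, 237, 143 and 329 against 414, 217, 236 and 748. In each of the 3 genes lung metastasis 1 and primary tumour 4 were the 2 highest libraries, and the groups overlapped over nearly their whole range.

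Cd74, the invariant chain, had its highest values in the same pair of libraries, at 1808, 621, 472 and 762 in the metastases and 1001, 621, 822 and 1627 in the primary tumours. The log2 changes were -0.03 for H2-Aa, -0.12 for H2-Ab1, -0.25 for H2-Eb1 and -0.26 for Cd74, with adjusted p of 0.753 to 0.975. Their intervals were wide, from -1.36 at the lowest (H2-Eb1) to 1.01 at the highest (H2-Aa).

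H2-DMa, H2-DMb1 and H2-DMb2 encode the chains of H2-DM, which exchanges the Cd74 remnant for peptide. H2-DMa was at 136, 58.8, 37.7 and 67.6 in the metastases and 107, 65.0, 88.9 and 124 in the primary tumours (log2 change -0.47, adjusted p = 0.454). H2-DMb1 (32.8 ± 23.1 against 36.2 ± 16.1) and H2-DMb2 (19.6 ± 7.6 against 22.4 ± 8.69) had their 2 highest values in the same pair of libraries. Lung metastasis 1 and primary tumour 4 were thus the top pair for 7 of 7 genes among the chains, H2-DM and Cd74, for 8 of the 12 class II rows, for 1 of the 22 class I rows and for 1.39% of all genes. These genes were read in the same libraries, so the count describes 2 samples and not a condition.

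The class II genes moved in opposite directions in different mice. Of the 7 chain, H2-DM and Cd74 genes, 7 were higher in the metastasis of mouse 1 (median log2 difference 0.68), 5 in mouse 2 (0.13), 0 in mouse 3 (-0.72) and 0 in mouse 4 (-0.87). Over all genes, 49.5%, 52.1%, 47% and 47.9% were higher in the metastasis of mice 1 to 4. With 1 library per tissue and mouse, these differences within a mouse have no replicate check.

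The sum of the 3 class II chains and Cd74 varied from 1087 to 4195 over the 8 libraries, more widely than the ratios between these genes. H2-Aa over H2-Ab1 was 1.48 to 1.98, Cd74 over H2-Ab1 was 2.51 to 3.49 and H2-Eb1 over H2-Ab1 was 0.816 to 1.26. H2-DMa over H2-DMb1 was 1.91 to 3.47. Relative to the sum of the class I heavy chains it was 0.662, 0.442, 0.379 and 0.393 in the metastases and 0.491, 0.244, 0.509 and 0.844 in the primary tumours, so the balance of the 2 branches differed most between primary tumours 2 and 4.

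H2-Oa and H2-Ob, whose product H2-DO restrains H2-DM and is best known from B cells, were near the detection limit. H2-Oa was at 1.07, 1.03, 0.676 and 0.252 in the metastases and 0.278, 0.513, 0.169 and 2.82 in the primary tumours, from 72 and 105 reads. H2-Ob was at 1.42, 1.81, 5.48 and 2.69 against 0.477, 0.552, 0.573 and 2.78, from 232 and 122 reads. H2-Ob was the 1 member highest in lung metastasis 3, and its change of 0.89 (interval -0.06 to 1.85) did not pass (adjusted p = 0.247). Both genes were high in primary tumour 4 alone among the primary tumours.

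The sum of 8 B cell markers, a cell type that makes H2-DO, was 21.5, 17.4, 45.6 and 11.8 in the metastases and 2, 6.2, 2 and 3.8 in the primary tumours, where Fcer2a was at 0. Of the 3 B cell markers tested, 2 were called higher, Pax5 and Cd79b. The part of B cells in the H2-Ob values was not tested. In primary tumour 4, where H2-Oa and H2-Ob were high, the sum of 3.8 was within the range of the other primary tumours.

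Ciita, the transactivator of class II genes, was at 32.6, 10.07, 16.2 and 11.5 in the metastases and 13.6, 9.31, 9.84 and 24.5 in the primary tumours (log2 change 0.24, interval -0.66 to 1.13, adjusted p = 0.763). Its 2 highest libraries were those of the class II chains, lung metastasis 1 and primary tumour 4. Its lowest library was primary tumour 2, as for H2-Aa, whereas H2-Ab1 and H2-Eb1 were lowest in lung metastasis 3. The second row named Ciita was at 0 to 3.32, from 148 and 90 reads, and is not described further.

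Endosomal processing was represented by Ifi30 and Lgmn. Ifi30 encodes GILT, which reduces disulfide bonds of antigens. It was at 179, 188, 95.4 and 175 in the metastases against 171, 94.0, 246 and 156 in the primary tumours (adjusted p = 0.959), the lowest values being in lung metastasis 3 and primary tumour 2. Lgmn encodes legumain, an asparaginyl endopeptidase that starts the cutting of Cd74 and antigens. It was at 470, 491, 149 and 421 in the metastases and 709, 557, 620 and 713 in the primary tumours. The groups did not overlap and all 4 mice were lower in the metastasis.

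The Lgmn change of -0.90 (SE 0.352, interval -1.68 to -0.12) did not pass over all genes (adjusted p = 0.156, 0.0514 to 0.318 over 19 alternatives), and it was -0.49 without lung metastasis 3 (adjusted p = 0.0569). The macrophage markers, listed above, were lowest in lung metastasis 3 as well (791). Lgmn is abundant in macrophages, whose part in the difference was not tested.

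**Figure D4:**
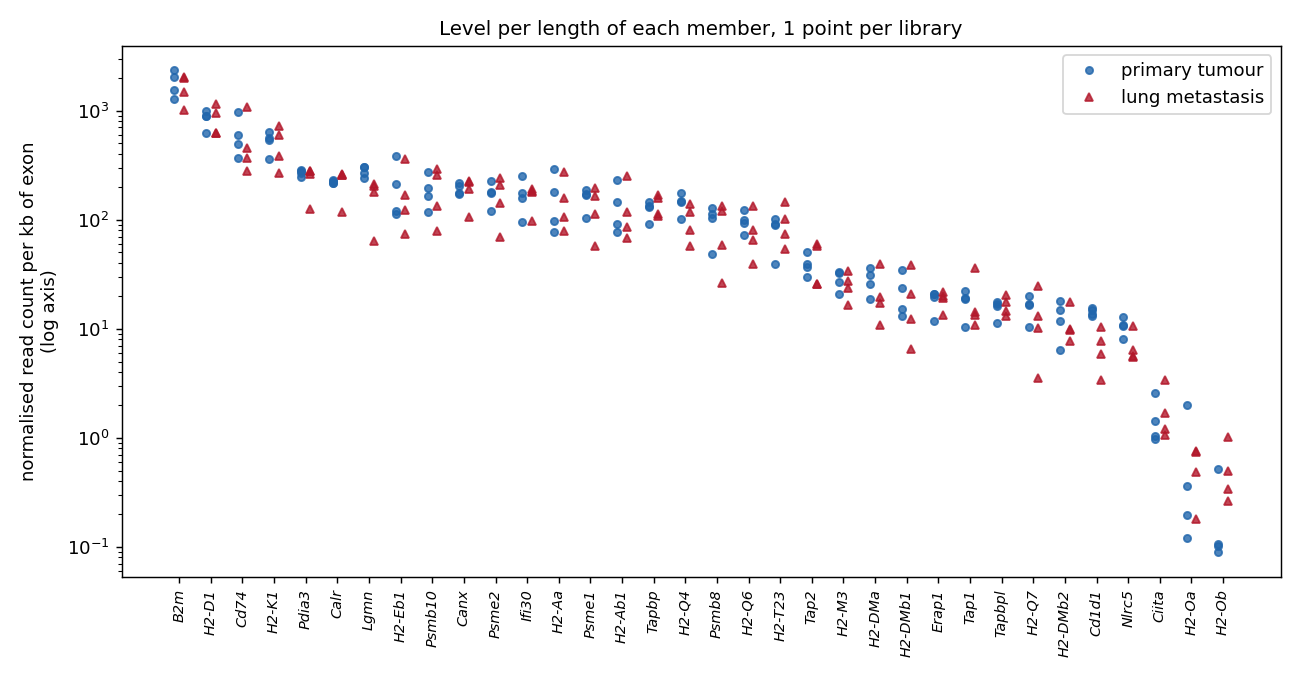
Normalised read count per kilobase of exon (log axis) of each member with a length, 1 point per library, ordered by the mean over the 8 libraries. Primary tumours are blue circles and lung metastases red triangles. B2m is highest and H2-Ob lowest, and the groups overlap for nearly every gene, Cd1d1 and Lgmn being the exceptions.

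Per kilobase of exon, a rough scale for comparing genes, B2m had a mean of 1720 normalised counts over the 8 libraries. H2-D1 was at 845, Cd74 at 576 and H2-K1 at 509. Exon lengths were unions of GENCODE vM21 exons, which may exceed the transcripts present. The excess over the longest coding transcript was unequal. H2-K1 had 2.938 kb against 1619 bases, H2-Aa 3.798 kb against 1128 and H2-M3 1.438 kb against 1438. The order of genes given here therefore depends on the length used. After H2-K1 came Pdia3 at 253, Calr and Lgmn at 222 and H2-Eb1 at 194. Psmb10, Canx, Psme2 and Ifi30 (189 to 166) followed, then H2-Aa at 158, Psme1 at 145 and H2-Ab1 at 133. The transporter genes stood lower, with Tap2 at 40.5 and Tap1 at 18.1. At the bottom were Nlrc5 at 8.79, Ciita at 1.67, H2-Oa at 0.605 and H2-Ob at 0.367. Neighbours in this order often overlapped over libraries, as H2-D1 (622 to 1160) and Cd74 (281 to 1077) did. With these exon lengths the lowest B2m (1011) was above the highest H2-K1 (725), and with transcript lengths this was not tested.

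Other genes of the pathway, listed by function and not by how they moved, had 0 of 57 tested members called, beside the 9.13% of all genes. Of 11 other class I heavy chains (median log2 change -0.08), the smallest p was that of H2-T24, at 33.6, 19.5, 110 and 13.7 in the metastases and 7.47, 14.4, 3.14 and 9.47 in the primary tumours (adjusted p = 0.0778). H2-Ea-ps, the I-E alpha gene, which the reference annotates as a pseudogene, was at 588, 241, 167 and 274 against 372, 154, 218 and 634. Its highest pair of libraries was that of the class II chains, and its ratio to H2-Eb1, which encodes its partner chain, was 0.708 to 1.17.

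The 13 genes of peptide supply and loading had a median of -0.20 and the 8 of endosomal processing -0.24. Of the latter, cathepsin S (Ctss), which cuts Cd74, was at 637 ± 265 against 1140 ± 334 (adjusted p = 0.212). The 18 genes of interferon gamma signalling and transactivators had a median of 0.13. The kinase Jak2 had the smallest p among them and was lower, at 155 ± 23.4 against 199.6 ± 28.2 (adjusted p = 0.25). The summed level of the 18 genes was highest in lung metastasis 1 (2028). In that library 15 of the 34 members were highest, against 6.29% of all genes. The sum was next highest in lung metastasis 3 (1801.5), above every primary tumour (1390 to 1650). Lung metastasis 3 was the lowest library for 21 of the 34 members, against 34.4% of all genes. The part of this signalling in the members' levels was not tested. The 6 co-stimulatory and inhibitory ligands had a median of -0.09, with Cd80 at 5.89 ± 1.18 against 3.70 ± 0.72 (adjusted p = 0.262).

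Sums of dendritic cell, B cell and macrophage markers were highest in other libraries than the class II genes in both groups. Dendritic cell markers summed to 122, 79.9, 135 and 74.7 in the metastases and 50.3, 65.2, 27.6 and 51 in the primary tumours, with Clec9a and Xcr1 called higher of 9 tested. Lung metastasis 3, with the highest dendritic and B cell sums, had the lowest sum of class II chains and Cd74 (1087). Its dendritic sum rested mostly on Clec9a (40.5), Itgax (37.7) and Zbtb46 (37.2), and single dendritic markers differed in order. Among the metastases, Flt3, Itgax, Xcr1, Batf3 and Ccr7 were highest in lung metastasis 1, where class II was highest. Clec9a and Zbtb46 were highest in lung metastasis 3, and Cd209a, Siglech and Kmo in lung metastasis 2. Primary tumour 4, with a dendritic sum of 51, had 4070. Macrophage markers summed to 1556, 1987, 791 and 1456 in the metastases and 3132, 1476.5, 3259 and 3044 in the primary tumours. Within each group they were lowest where class II chains and Cd74 were lowest, in lung metastasis 3 (1087) and primary tumour 2 (1328). T and NK cell markers summed to 72.4, 30.6, 47.9 and 23.1 in the metastases and 19.8, 15.3, 5.1 and 23.2 in the primary tumours, highest within each group in the library where class II was highest. The part of these cells in the class II differences between libraries was not tested.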

How the data were processed

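RNA of bulk tumours was sequenced from TruSeq RNA libraries, per the labels' protocols, which do not describe strand marking. The authors deposited 1 table of signal values, the reads of a gene over the scaled size of its library. Each value was a whole multiple of 1 read within 0.05 reads (100% of values), so reads were recovered. The values of a library summed to 962401 to 1044330, so they were close to the plain CPM that had been planned for, apart from the library scaling. The log-scale test was kept. The build was mm9, per the submitters' processing notes; aligner, counter and annotation were not given in the sources used here. Columns of the other model (12) were not used.

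Genes reaching 1 normalised count in 4 or more of the 8 libraries were tested with limma 3.58.1 (intensity trend, log2(value + 1), group means, Benjamini-Hochberg adjustment over 14003 genes, threshold 0.05), after a test on simulated data. The added 1 makes fold changes of low genes appear smaller. Alternatives were other pseudocounts, filters and scalings, array weights, the mouse as a block, edgeR 4.0.16 and DESeq2 1.42.0 on recovered reads, and leaving out each library. Members and lists were chosen with earlier results of these data known. Values in every library were given for called members, the smallest p of each role and the genes that define the pathway, and for further members where a result turned on them. The titles name the mouse, so equal numbers are the same animal, although deviations from group means correlated by only -0.15 to 0.1 within mice. No replicate pair agreed within sampling noise (chi-square per gene of 52.9 to 495).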

Additional observations from a re-analysis of the deposited data

Results flagged for a closer look

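In 7 of 70 groups of 4 libraries, the highest or lowest library was set apart from the other 3. The gap, as a share of the group's range, exceeded Dixon's 95% critical value. For independent groups, chance gives this in about 1 in 20. The 70 groups come from the same 8 libraries and are not independent, and the rule was not run over all genes. Lung metastasis 3 was low for Calr (335, others 736 to 753), Pdia3 (393, others 821 to 882) and Ifi30 (95.4, others 175 to 188). Lung metastasis 1 was high for Tap1 (197, others 59.1 to 77.3). Primary tumour 3 was low for Erap1 (85.1, others 141 to 151). Primary tumour 4 was high for H2-Oa (2.82, others 0.169 to 0.513) and H2-Ob (2.78, others 0.477 to 0.573).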

How the results depend on the processing

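Over 19 alternatives, 0 to 1 members were called, and Cd1d1 was the 1 called wherever there was one; it stayed below 0 in each. The count was 0 with a value of at least 1 asked in all 8 libraries, with edgeR, and with edgeR and the replicate block (limma with the replicate block kept 1). It was 0 to 1 on leaving out 1 library. Over all genes 1279 became 564 with the stricter filter, 2283 with array weights, 1985 with DESeq2, 700 with edgeR and the replicate block, and 563 to 1155 on leaving out 1 library; it was 1112 with the replicate block in limma. Cd1d1 was -1.35 to -0.84 on leaving out 1 library.

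No member whose sign turned passed in any fit; most had small log2 changes, the largest being -0.57 for H2-Q7. With array weights 12 of 34 members were below 0, and the values that turned were Tap1 0.36, Calr 0.16, Psmb10 0.16, H2-K1 0.12, Canx 0.11, H2-D1 0.10, Psme2 0.09, Ifi30 0.08, H2-Aa 0.08, H2-Ab1 0.05, B2m 0.02, H2-M3 0.00 and H2-Q7 0.00. With edgeR, Calr was 0.00, Psmb10 0.03 and Tap1 0.08. With DESeq2, Calr was 0.03, Psmb10 0.06, Tap1 0.10 and H2-D1 0.02. With median-ratio scaling, Ifi30 was 0.00 and H2-Aa 0.01. The cause was not tested.

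On leaving out 1 library, class I values ranged from -0.37 to 0.11 for H2-K1, -0.22 to 0.08 for H2-D1, -0.10 to 0.44 for H2-T23, -0.32 to 0.01 for H2-M3, -0.78 to -0.35 for H2-Q4, -0.68 to -0.09 for H2-Q6, -0.97 to -0.06 for H2-Q7 and -0.31 to 0.06 for B2m. Loading genes ranged from -0.42 to 0.15 for Tap1, -0.19 to 0.22 for Tap2, -0.03 to 0.22 for Tapbp, -0.06 to 0.18 for Tapbpl, -0.16 to 0.18 for Erap1, -0.18 to 0.21 for Calr, -0.20 to 0.16 for Canx and -0.36 to 0.03 for Pdia3. Proteasome genes ranged from -0.68 to 0.10 for Psmb8, -0.36 to 0.27 for Psmb10, -0.58 to 0.00 for Psme1 and -0.43 to 0.17 for Psme2. Class II values ranged from -0.36 to 0.32 for H2-Aa, -0.49 to 0.18 for H2-Ab1, -0.67 to 0.10 for H2-Eb1, -0.65 to 0.00 for Cd74, -0.81 to -0.20 for H2-DMa, -0.71 to 0.10 for H2-DMb1, -0.44 to 0.04 for H2-DMb2, -0.10 to 0.51 for Ciita and -0.28 to 0.19 for Ifi30. Lung metastasis 3, the shallowest library, decided the sign of the members' median: it was 0.11 without it and -0.36 to -0.06 without any other single library. Depth limits H2-Oa, H2-Ob and the second Ciita row, which rest on 72 to 232 reads per group.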
